A study of Mus musculus with 5 samples.

Results

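The effect of an atherogenic diet on liver gene expression was taken as the average over both feeding times of the study, 10 weeks and 1 week. For each gene it is the mean of 2 paired log2 ratios, diet over chow at 10 weeks and diet over chow at 1 week, and the mean of a gene is given with both ratios so that their agreement in sign and size can be seen. It rests on 4 of the 5 arrays of the series, 2 arrays per side blocked by feeding time; the remaining array, from mice on the diet that also received the statin atorvastatin for the final 3 weeks, was left out. All groups were C57B/L mice, received at 8 weeks of age and kept for 2 weeks before feeding began. The groups used here were standard chow for 10 weeks, the atherogenic diet for 10 weeks, standard chow for 1 week and the atherogenic diet for 1 week. Livers within a group were pooled, RNA was isolated with Trizol and cleaned on RNeasy columns, and biotin-labelled cRNA of each pool was hybridised to 1 Affymetrix oligonucleotide array.

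How many livers went into a pool, what the diet contained and at what time of day livers were taken is not given in the sources used here. Each array is 1 pool, so every p-value below measures only the spread between these 4 arrays. The sample called the 1-week diet here carries a source name that gives chow, whereas its title, description and protocols give the atherogenic diet. It was kept with the diet, and the 10-week ratio printed for a gene is its value without that array. The pairs share no array. Signals are MAS5 intensities on a linear scale, and the 2% trimmed mean was 500.2 on every one of the 4 arrays. A log2 ratio of 1 is a signal 2-fold higher on the diet array, and a ratio of -1 a signal 2-fold lower.

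An atherogenic diet is a feed rich in fat and cholesterol that raises blood cholesterol and promotes artery disease in susceptible mice. In the liver, sterols that accumulate activate the LXR receptors, which induce sterol export pumps, and they restrain SREBP2, which drives the enzymes of cholesterol synthesis and sterol uptake. Excess sterol can leave as bile acids, which feed back on their own synthesis, and excess fatty acid is stored as triglyceride in lipid droplets. The liver also carries a circadian clock that sets a daily rhythm in many genes of lipid, bile acid and glucose metabolism.

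Of 12393 genes with a named probe set, 8014 lay above a floor signal of 137.4, the 40th percentile of all signals, on at least 3 of the 4 arrays and were tested. No gene passed the limma test of the diet at a Benjamini-Hochberg adjusted p under 0.05, or 0.00% of the genes, and the lowest adjusted p was 0.225. At an unadjusted p under 0.05 there were 289 genes, or 3.61%, of which 152 were higher on the diet and 137 lower. The model has 1 residual degree of freedom, which holds the difference between the pairs, and an exact sign-flip permutation test over 2 pairs cannot go below p = 0.5. The coefficient of feeding time also holds age, since all groups arrived at the same age and mice fed for longer were older. In the same fit no gene passed for feeding time, with a lowest adjusted p of 0.0687 and 666 genes at an unadjusted p under 0.05. What follows therefore describes signals on these arrays, and "higher" and "lower" refer to measured signals and not to genes that passed a test.

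The pairs agreed for few genes. The 10-week and 1-week ratios had the same sign for 3722 genes, or 46.4%, and opposite signs for 4292. Both ratios were at least 1.5-fold in the same direction for 160 genes, 85 of them higher on the diet in both pairs (1.06% of the tested genes) and 75 lower in both (0.936%). Both ratios were at least 1.5-fold in opposite directions for 220 genes, which is more than agreed. At a looser limit, a log2 ratio of 0.32 in both pairs, 729 genes agreed and 988 were opposed, and at 2-fold 17 agreed and 14 were opposed.

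**Figure D1:**
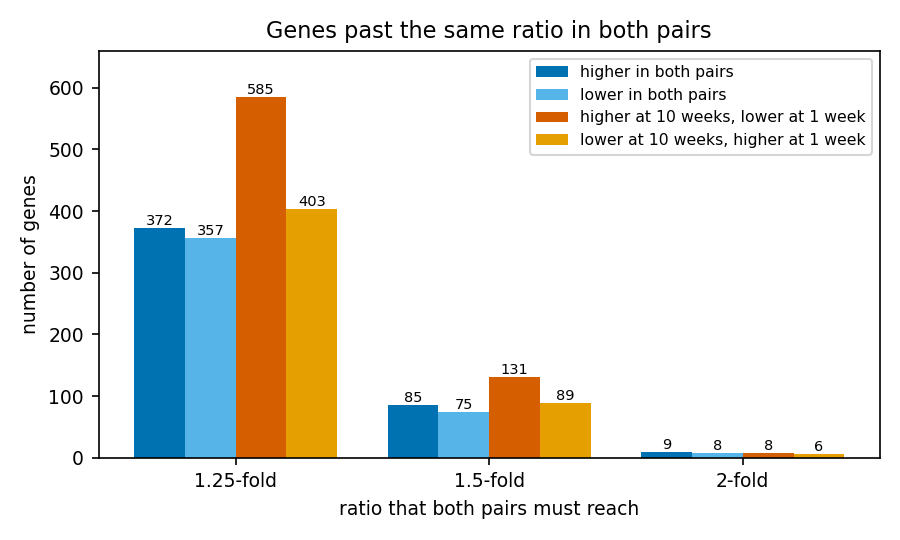
Bars give the number of the 8014 tested genes whose diet over chow ratio reached each of 3 limits in both pairs, split by the direction in each pair. At 1.5-fold, 85 genes were higher and 75 lower in both pairs, against 131 that were higher at 10 weeks but lower after 1 week and 89 with the reverse pattern.

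Across genes the Pearson correlation of the pair ratios was -0.08 and the Spearman correlation -0.09 over 8014 genes. Genes are not independent replicates, and the correlation lay between -0.09 and -0.04 in each of 4 equal groups of genes ranked by signal. The 10-week ratios were wider, with a SD over genes of 0.55 on the log2 scale against 0.41 at 1 week, and 96 of the 160 agreeing genes had the larger ratio at 10 weeks. The SD of the mean of both pairs was 0.33, below the SD of 0.35 of each pair's deviation from that mean. Both ratios differed by less than 1.5-fold for 74 of the 85 higher genes and 62 of the 75 lower genes. At the looser limit this held for 324 of 372 higher and 301 of 357 lower genes. The same ratios chose the genes, so these counts describe them and support nothing. The share of genes that agreed at 1.5-fold was 2.79% in the group of lowest signal and 1.45% in the group of highest signal. At the edge of the 1.5-fold rule stood Adcy9 (0.59 and 0.63) just inside and Pou2f3 (0.58 and 0.98) just outside among higher genes, and Atpaf2 (-0.59 and -0.59) just inside and Noct (-1.32 and -0.58) just outside among lower genes.

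**Figure D2:**
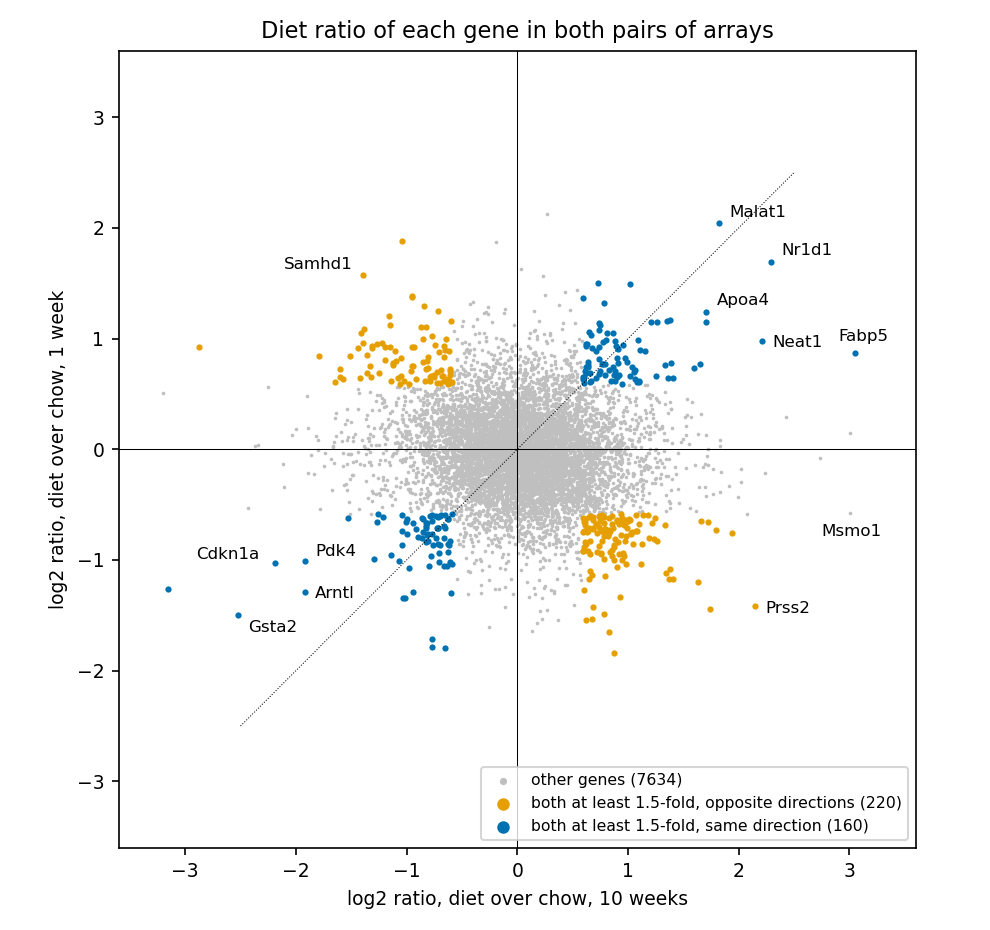
Each point is 1 of 8014 tested genes, with the log2 ratio of diet over chow at 10 weeks on the horizontal axis and at 1 week on the vertical axis; the dotted line marks equal ratios. The cloud has no slope, the 160 agreeing genes lie in the upper right and lower left corners, with Malat1 and Nr1d1 towards the upper right and Gsta2 towards the lower left.

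The arrays differed in quality measures, none of which separated both diet arrays from both chow arrays. Relative to chow at 1 week, the 9 spike-in probe sets had a geometric mean signal 5.76 times as high for chow at 10 weeks, 1.42 times for the diet at 10 weeks and 1.05 times for the diet at 1 week. The share of probe sets above the floor was 57.5 to 61.6%, the 3' to 5' ratio of the Gapdh control 0.783 to 1.01 and that of beta-actin 1.17 to 1.73. Spearman correlations between the 4 arrays lay between 0.895 and 0.935. The summed signal of 11 hepatocyte markers was lower on the diet in each pair, at 423665 on the 10-week chow array and 322229 on the 10-week diet array, and 262460 and 234805 on the 1-week arrays; all 11 lay above the floor on the 4 arrays, as the labelled tissue would have it. The part of these differences in the results below was not tested.

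Of the gene lists described here the circadian clock had the most members past the rule. In this clock the proteins CLOCK and ARNTL bind E-boxes and drive the Per and Cry genes, whose proteins repress them, and also Nr1d1, Nr1d2, Dbp and Tef. NR1D1 and NR1D2 (REV-ERB alpha and beta) in turn repress Arntl and Nfil3, and DBP and TEF activate, and NFIL3 represses, genes that carry D-boxes. Of 21 clock genes listed 19 have a named probe set and 14 were tested. Both pairs were at least 1.5-fold higher on the diet for 6 of the 14 and lower for 2, and 8 of the 14 had an unadjusted p under 0.05. Over all tested genes these shares were 1.06%, 0.936% and 3.61%. The list was chosen with earlier results of these data known, and no member passed the adjusted test. The time of day at which livers were taken is not known, and each group is 1 pool. In these genes a difference in that time and an effect of the diet cannot be told apart.

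Promoter windows, which run from 250 bases before to 50 bases after a transcript start, are shown for clock genes that agreed between the pairs and whose window holds one of 3 clock motifs. They come from RefSeq, assembly GRCm38.p6, and are written 5' to 3' on the strand of the gene. Capitals mark the E-box CACGTG, the D-box TTANGTAA or the receptor hexamer AGGTCA, to which ROR and REV-ERB proteins bind, searched on both strands. Arntl (chr7:113207261-113207560, plus strand), Nr1d2 (chr14:18239057-18239356, minus strand) and Nfil3 (chr13:52980990-52981289, minus strand) hold the hexamer, in Nfil3 on the opposite strand. Tef (chr15:81802423-81802722, plus strand) holds an E-box, and Per3 (chr4:151044616-151044915, minus strand) holds 2 D-boxes.
Arntl: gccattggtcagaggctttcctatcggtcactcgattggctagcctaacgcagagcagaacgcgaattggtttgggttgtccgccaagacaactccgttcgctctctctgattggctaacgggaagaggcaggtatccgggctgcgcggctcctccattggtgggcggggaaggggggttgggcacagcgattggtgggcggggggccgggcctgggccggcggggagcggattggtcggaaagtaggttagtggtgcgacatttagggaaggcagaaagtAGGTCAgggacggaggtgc
Nr1d2: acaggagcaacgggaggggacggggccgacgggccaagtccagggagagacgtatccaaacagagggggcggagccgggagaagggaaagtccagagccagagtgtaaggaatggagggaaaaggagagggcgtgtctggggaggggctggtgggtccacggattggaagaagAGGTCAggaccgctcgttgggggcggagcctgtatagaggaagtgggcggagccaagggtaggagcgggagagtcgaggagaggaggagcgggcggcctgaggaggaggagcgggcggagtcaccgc
Nfil3: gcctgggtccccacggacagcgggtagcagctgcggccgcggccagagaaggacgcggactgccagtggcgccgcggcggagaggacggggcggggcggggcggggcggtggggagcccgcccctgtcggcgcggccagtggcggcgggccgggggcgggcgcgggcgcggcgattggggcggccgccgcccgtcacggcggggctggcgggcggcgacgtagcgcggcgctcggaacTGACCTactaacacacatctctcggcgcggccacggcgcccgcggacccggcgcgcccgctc
Tef: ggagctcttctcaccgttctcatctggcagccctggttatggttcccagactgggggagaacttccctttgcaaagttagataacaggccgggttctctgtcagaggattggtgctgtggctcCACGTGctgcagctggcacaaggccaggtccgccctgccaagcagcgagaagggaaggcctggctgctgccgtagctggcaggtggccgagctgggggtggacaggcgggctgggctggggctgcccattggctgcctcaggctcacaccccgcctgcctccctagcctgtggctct
Per3: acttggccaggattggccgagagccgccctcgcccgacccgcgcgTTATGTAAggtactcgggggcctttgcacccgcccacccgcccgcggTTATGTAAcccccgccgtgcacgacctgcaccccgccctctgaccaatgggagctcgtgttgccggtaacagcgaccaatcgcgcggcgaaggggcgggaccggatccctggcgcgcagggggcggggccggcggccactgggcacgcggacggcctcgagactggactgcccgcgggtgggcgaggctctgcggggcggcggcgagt

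Of the 21 clock genes 17 have a window in the RefSeq table, 25 windows in all. An E-box was present for 5 of the 17 genes, a D-box for 1 and the hexamer for 5. Over all genes of the table, 8.09% have a window with an E-box, 2.72% one with a D-box and 18.1% one with the hexamer. A match is a description of the letters, not a binding site, and the windows of Nr1d1 and Cry2 hold none of the 3 motifs.

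Nr1d1, the gene of REV-ERB alpha, had the largest mean ratio of the clock genes that entered the fit. Its signal was 190.2 on chow and 930.3 on the diet at 10 weeks, and 321 on chow and 1039 on the diet at 1 week. Both diet arrays lay above both chow arrays, and the ratios of 2.29 and 1.70 gave a mean of 1.99 ± 0.42 (SD, n = 2 pairs; limma adjusted p = 0.225). The same separation of both diet arrays from both chow arrays held for 13.8% of tested genes upwards and for 12.8% downwards. Nr1d2, the gene of the related REV-ERB beta, had signals of 686 and 728 on chow and 1581 and 1616 on the diet at 10 weeks and 1 week. Its ratios of 1.21 and 1.15 were nearly equal, with a mean of 1.18 ± 0.04 (SD, n = 2 pairs).

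Arntl, which encodes the activator BMAL1, went the other way. Its signal was 637 on chow and 168 on the diet at 10 weeks, and 683 and 279.9 at 1 week. Both diet arrays were below both chow arrays, with ratios of -1.92 and -1.29 and a mean of -1.60 ± 0.45 (SD, n = 2 pairs; limma adjusted p = 0.582). Nfil3, the repressor at D-boxes, had signals of 511 and 1267 on chow and 325 and 366 on the diet, for ratios of -0.66 and -1.79. Clock, the partner of Arntl, differed in sign between the pairs, with ratios of -0.65 and 0.25, and its mean turns from -0.20 to 0.039 with a floor at the 60th percentile. Its other probe set gave -0.45 and -0.40.

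Of the D-box activators, Tef had signals of 1062 and 1089 on chow and 2259 and 2153 on the diet at 10 weeks and 1 week, and the ratios of 1.09 and 0.98 gave a mean of 1.04 ± 0.07 (SD, n = 2 pairs). Dbp could not enter the fit, since both chow arrays were at the floor of 137.4. Its diet signals were 1231 at 10 weeks and 414 at 1 week, which makes the diet at least 5.20-fold higher on average and at least 3.02-fold in the smaller pair. Hlf, the remaining activator of that family, had ratios of -0.50 and 0.08, and its other probe set gave -0.04 and 0.50.

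Among the repressors of the negative limb, Per3 had ratios of 0.74 and 0.81, Cry2 0.59 and 1.36, and Bhlhe40, which encodes the repressor DEC1, 0.90 and 0.82. Cry2 was at the floor on the 1-week chow array, so that its 1-week ratio is a bound, and the Bhlhe40 signals of 577 and 299 on chow and 1080 and 529 on the diet overlapped between the sides. Per1 was at the floor on the 10-week diet array and had ratios of -1.66 and 0.03. Cry1 was at the floor on both diet arrays and above it on both chow arrays, at 188 and 249.8, which makes the diet at least 1.58-fold lower on average. Rora, an activator of Arntl, had ratios of 0.71 and 0.36, but its other probe sets gave 1.30 and -0.17, and -1.18 and -0.16. The kinase gene Csnk1d had -0.45 and -0.42, and 3 of its 4 other probe sets above the floor had ratios of opposite sign (0.84 and -0.71, -0.42 and 0.38, 0.46 and -0.19). The kinase gene Csnk1e had 0.03 and 0.21, and its other probe set 0.38 and -0.11. Per2, Npas2 and Bhlhe41 were above the floor on too few arrays to be tested. The median ratio of the 14 tested clock genes was 0.31 in both pairs, beside 0.05 and -0.03 for all tested genes.

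**Figure D3:**
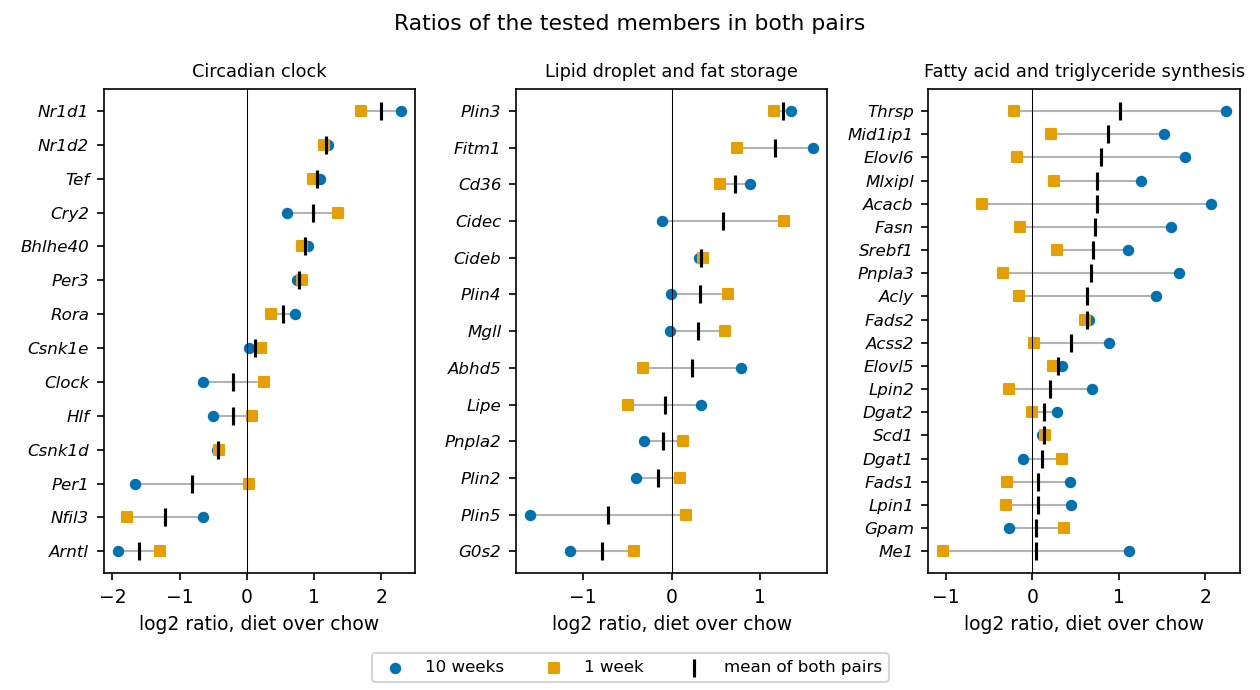
For each tested gene of 3 lists, the log2 ratio of diet over chow is shown at 10 weeks (circle) and 1 week (square) with the mean of both pairs (bar). In the clock list the circles and squares lie close together for Nr1d2, Tef, Bhlhe40, Per3 and Csnk1d, and in the list of fatty acid and triglyceride synthesis 13 of 20 genes have a circle and a square on opposite sides of 0.

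Nuclear noncoding RNAs were among the genes with the largest agreeing ratios. Malat1, an abundant nuclear RNA, had signals of 496 and 894 on chow and 1748 and 3679 on the diet at 10 weeks and 1 week. The ratios of 1.82 and 2.04 gave a mean of 1.93 ± 0.16 (SD, n = 2 pairs; limma adjusted p = 0.225). Its other probe sets above the floor did not share this size, with ratios of 0.15 and 0.49 for the first, 1.26 and 0.45 for the second and -0.28 and -0.59 for the last. Neat1, the RNA that builds paraspeckles, had signals of 303 and 1277 on chow and 1406 and 2519.8 on the diet, for ratios of 2.21 and 0.98. Both RNAs had higher signal on both diet arrays than on both chow arrays, as did 13.8% of all tested genes. The imprinted RNA Meg3 had ratios of -0.02 and 0.12 by its brightest probe set. For Meg3 too the result depends on the probe set, since others gave 1.20 and -0.03, and 1.66 and 0.89.

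Genes that store fat agreed in part. Of 13 tested genes of lipid droplets and fat storage, 2 were at least 1.5-fold higher in both pairs and none lower. Over all tested genes the shares were 1.06% and 0.936%. Plin3, a droplet coat protein, had signals of 452.5 and 371.5 on chow and 1153 and 829 on the diet at 10 weeks and 1 week, for close ratios of 1.35 and 1.16. Fitm1, which partitions fat into droplets, had ratios of 1.60 and 0.74, with the 1-week chow array at the floor. Cd36, a fatty acid uptake receptor, had ratios of 0.88 and 0.55 and just missed the rule at 1 week. Its other probe sets gave 0.90 and 1.19, past the rule, and 0.51 and -0.03. Of the 13 genes 8 had ratios of opposite sign, against 4292 of all 8014 tested genes. Among the 8 were Cidec (-0.11 and 1.27) and Plin5 (-1.60 and 0.16). G0s2, an inhibitor of the lipase ATGL, was lower in both pairs at -1.15 and -0.42.

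Fatty acid binding proteins were seen among the agreeing genes after their values were known, outside any list. Fabp5 had signals of 542 and 413 on chow and 4497 and 755 on the diet, for ratios of 3.05 and 0.87, the largest 10-week ratio of the 85 genes higher in both pairs. Its other probe set gave 3.26 and 0.55. Fabp2, the intestinal form, had ratios of 1.33 and 0.77. Bscl2, which encodes the droplet protein seipin, had ratios of 0.63 and 0.95, and Sptlc2, a subunit of the first enzyme of sphingolipid synthesis, had 0.77 in both pairs.

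Apolipoproteins differed among themselves. Apoa4, a lipoprotein component, had signals of 2203 and 5583 on chow and 7190.1 and 13216 on the diet at 10 weeks and 1 week. Both diet arrays were above both chow arrays, as for 13.8% of all tested genes. The ratios of 1.71 and 1.24 gave a mean of 1.47 ± 0.33 (SD, n = 2 pairs; limma adjusted p = 0.786), and the other Apoa4 probe set gave 2.52 and 1.52. Apoa4 was the only one of 14 tested genes of this list with both pairs at least 1.5-fold. Lpl, the lipase that releases fat from lipoproteins, followed at 0.56 and 0.79. The abundant apolipoproteins Apoa1 (-0.46 and -0.12), Apoa2 (-0.52 and -0.27) and Apoe (-0.50 and -0.22) had lower signal in both pairs; Apoa1 and Apoe had a mean above 0 after quantile normalization, of 0.03 and 0.01. Apob, the scaffold of very low density lipoprotein, had -1.75 at 10 weeks and -0.15 at 1 week.

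LXR targets and sterol export genes agreed in sign more often than in size. Of 11 tested members, 7 were higher in both pairs and 1 was lower, against 1881 and 1841 of all 8014 genes, and only Cyp7a1 had both ratios past 1.5-fold. The sterol pumps Abcg5 (0.75 and 0.53), Abcg8 (0.56 and 0.47) and Abca1 (0.37 and 0.45) all had both diet arrays above both chow arrays. So did 13.8% of all tested genes. For Abcg5 the signals were 2452 and 1749 on chow and 4126 and 2532 on the diet, a mean ratio of 0.64 ± 0.15 (SD, n = 2 pairs). Pltp, the phospholipid transfer protein, had ratios of 0.83 and 0.29, and the bile salt pump Abcb11 had 0.71 and 0.28. The other Abca1 probe sets fell apart at 1 week, with ratios of 1.18 and -0.59 for one and 1.07 and -0.19 for another.

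Cyp7a1, which sets the rate of bile acid production from cholesterol, had lower signal on the diet in both pairs. The signals were 2797 and 2277 on chow and 1772 and 1096 on the diet at 10 weeks and 1 week, with ratios of -0.66 and -1.05 and a mean of -0.86 ± 0.28 (SD, n = 2 pairs). Its second probe set gave -0.21 and -2.18. Of the 14 tested genes of bile acid synthesis it was the only one past 1.5-fold in both pairs. Cyp39a1, an oxysterol hydroxylase, had ratios of -1.252 and -0.40, lower in both pairs but far apart, with a mean of -0.82 ± 0.61 (SD, n = 2 pairs). Cyp8b1, the sterol 12-hydroxylase, had -1.34 and 0.01, and Nr0b2, a repressor of Cyp7a1, had 1.10 and -0.52. Over the 14 genes 4 were higher in both pairs, 6 were lower in both and 4 had opposite signs. For all 8014 tested genes these counts were 1881, 1841 and 4292.

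Fatty acid and triglyceride synthesis had an average made of unequal pairs. The median ratio of the 20 tested genes was 1.00 at 10 weeks and -0.07 at 1 week. Opposite signs were found for 13 of the 20, against 4292 of all 8014 tested genes. Fasn, the fatty acid synthase, had signals of 1244 on chow and 3783 on the diet at 10 weeks but 750.5 and 679 at 1 week, for ratios of 1.60 and -0.15. Thrsp (2.23 and -0.21), Elovl6 (1.77 and -0.17) and Acacb (2.07 and -0.58), which act in fatty acid synthesis and elongation, had the same pattern by their brightest probe sets. The other Elovl6 probe set differs, with higher signal in both pairs at 2.17 and 1.10, whereas that of Thrsp gave 2.4998 and -0.82. Srebf1, the regulator of these genes, was higher in both pairs at 1.10 and 0.29, as was Mid1ip1, an activator of acetyl-CoA carboxylase, at 1.53 and 0.21. Fads2, a desaturase, was the only member past 1.5-fold in both pairs, at 0.65 and 0.61, and its other probe set gave 1.28 and 0.02. Scd1, the main liver stearoyl desaturase, had 0.12 and 0.15 by its brightest probe set and 2.38 and -0.95 by its other one, so that its pattern depends on the probe set.

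Cholesterol synthesis also had medians of opposite sign in the pairs, 0.43 at 10 weeks and -0.35 at 1 week. Of 16 tested genes none was past 1.5-fold in the same direction in both pairs, 3 were past it in opposite directions, and 10 had opposite signs. Over all 8014 tested genes 220 were past it in opposite directions and 4292 had opposite signs. Sqle, squalene epoxidase, had signals of 336 and 578 on chow and diet at 10 weeks and 345 and 201 at 1 week, for ratios of 0.78 and -0.78. Msmo1, a sterol methyl oxidase, had 3.01 at 10 weeks and -0.57 at 1 week, where the diet array was at the floor. Fdft1, squalene synthase, had 1.499 and 0.09, and only it and Pmvk (0.66 and 0.13) were higher in both pairs. Hsd17b7, a later enzyme, had lower signal on both diet arrays than on both chow arrays, at -0.35 and -0.82, as did 12.8% of all tested genes. Cyp51, lanosterol demethylase, had ratios of -1.21 and -0.36.

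Glutathione enzymes held the largest agreeing ratio among lower genes with a gene name. Gsta2, a glutathione S-transferase that conjugates reactive compounds, had signals of 3431 and 1362 on chow and 597 and 482.5 on the diet at 10 weeks and 1 week. Both diet arrays were below both chow arrays, as for 12.8% of all tested genes. The ratios of -2.52 and -1.497 gave a mean of -2.01 ± 0.73 (SD, n = 2 pairs; limma adjusted p = 0.266). Gstp1, a transferase of another class, had ratios of -0.69 and -0.87, and Gsta4 had -0.52 and -0.86. These 2 genes past the rule, Gsta2 and Gstp1, stand among 22 tested genes of which 15 had opposite signs in the pairs. Opposite signs were found for 4292 of all 8014 tested genes, and 0.936% were past the rule downwards. Gstm3, of a further class, was 1.41 at 10 weeks and -1.17 at 1 week. The metallothionein Mt1 had ratios of -1.90 and 0.48 by its brightest probe set and 0.89 and 0.99 by its other one, so that its direction depends on the probe set.

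Genes of the fasting response were mostly lower on the diet. Of 13 tested members 8 had lower signal in both pairs and 2 had higher signal, against 1841 and 1881 of all 8014 tested genes. The medians of the 13 were -0.55 at 10 weeks and -0.18 at 1 week. Pdk4, which restrains glucose oxidation in fasting, had signals of 1214 and 1012 on chow and 321 and 504 on the diet, with ratios of -1.92 and -1.01 and a mean of -1.46 ± 0.65 (SD, n = 2 pairs; limma adjusted p = 0.791). It was the only member past 1.5-fold in both pairs. The catalytic glucose-6-phosphatase G6pc (-1.43 and -0.54), the gluconeogenic enzyme Pck1 (-0.98 and -0.21) and the tyrosine aminotransferase Tat (-0.55 and -0.58) had both diet arrays below both chow arrays. So did 12.8% of all tested genes. Pcx, pyruvate carboxylase, was higher at 0.44 and 0.78. Among 20 tested PPAR alpha targets and genes of fatty acid oxidation, Pdk4 was again the only gene past the rule. Fgf21, a fasting hormone, had -2.11 and -0.34, Acot1, an acyl-CoA thioesterase, had -2.04 and 0.13, and Cyp4a14, a fatty acid hydroxylase, had -0.84 and 0.20.

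Immediate early genes did not share a direction. Junb, a subunit of AP-1, had signals of 261 and 278 on chow and 853.5 and 617 on the diet at 10 weeks and 1 week, with ratios of 1.71 and 1.15 and a mean of 1.43 ± 0.39 (SD, n = 2 pairs). Dusp1, a phosphatase that inactivates MAP kinases, had -0.80 and -1.05, and Klf2, a transcription factor, had -1.004 and -0.65. Those 3 of 12 tested genes were past 1.5-fold in both pairs, as were 1.06% of all tested genes upwards and 0.936% downwards. Egr1 had -1.87 and -0.05, and Fos 0.17 and -1.57.

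The remaining genes with the highest agreement were of varied function. Cdkn1a, the cell cycle inhibitor p21, had signals of 1459.9 and 1906 on chow and 321 and 933 on the diet at 10 weeks and 1 week, for ratios of -2.19 and -1.03 and a mean of -1.61 ± 0.82 (SD, n = 2 pairs; limma adjusted p = 0.791). Sgk1, a kinase induced by glucocorticoids, had signals of 1277 and 1439 on chow and 519.7 and 724 on the diet, with ratios of -1.30 and -0.99 and a mean of -1.14 ± 0.22 (SD, n = 2 pairs). Phlda1 had signals of 352 and 693 on chow and 919.6 and 1557 on the diet, with ratios of 1.38 and 1.17 and a mean of 1.28 ± 0.15 (SD, n = 2 pairs). In all 3 both diet arrays lay on the same side of both chow arrays, a separation found for 13.8% of tested genes upwards and 12.8% downwards.

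Higher in both pairs were also Sec14l4 (0.96 and 0.94), of a family of lipid-binding proteins, Coro1b (1.10 and 0.89), an actin regulator, and Ascc1 (0.89 and 0.98). Sec14l4 had close ratios but overlapping sides, since its 1-week chow signal of 897 exceeded its 10-week diet signal of 661. Lower in both pairs were Scaf8 (-1.02 and -1.35), Phospho2 (-0.98 and -1.08), Ube2v2 (-1.04 and -0.86), Hhex (-0.81 and -0.83), Sox13 (-0.86 and -0.80) and Ifngr1 (-0.90 and -0.79). Hhex is a transcription factor of liver development and Ifngr1 a chain of the interferon gamma receptor. Other probe sets gave the same direction with smaller ratios at 1 week, -0.29 and -0.17 for Scaf8, -0.69 and -0.15 for Phospho2 and -0.85 and -0.10 for Ube2v2. AY036118, a sequence named here only by that identifier, had -3.15 and -1.26.

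**Figure D4:**
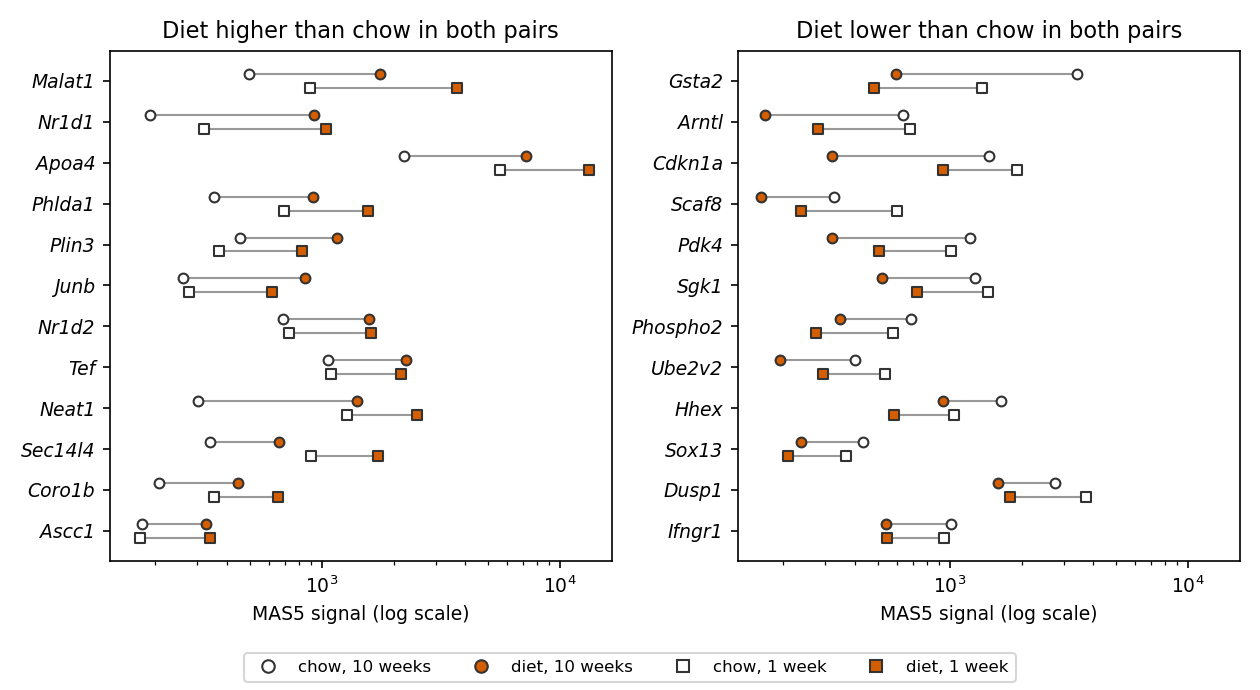
MAS5 signal on a log axis of the 12 named genes with the largest smaller ratio in each direction, with chow arrays open, diet arrays filled, 10 weeks as circles and 1 week as squares, and a line joining each pair. In every gene both lines run the same way, and Sec14l4 is the only gene shown whose diet and chow signals overlap.

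Cyp2b10 and Thra were singled out after their values were seen. Cyp2b10, a drug-metabolising cytochrome, had signals of 6550.2 and 8474 on chow and 3847 and 2588 on the diet at 10 weeks and 1 week, for ratios of -0.77 and -1.71. Thra, the thyroid hormone receptor alpha gene, whose locus overlaps that of Nr1d1 on the opposite strand, had ratios of -0.71 in both pairs, against 2.29 and 1.70 for Nr1d1.

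Among all 85 genes higher in both pairs, 73 had both diet arrays above both chow arrays, and among the 75 lower genes 73 had both diet arrays below. The rule used the same ratios, so these counts describe the genes and support nothing. A second probe set above the floor was present for 15 of the higher genes and had the same direction in both pairs for 10 of them and 1.5-fold in both for 3. Among the lower genes it was present for 23, with the same direction in 13 and 1.5-fold in 2. For all 2556 tested genes with another probe set, 696 or 27.2% had it in the direction of the mean in both pairs. Those 2556 include genes whose own pairs oppose each other, so the 27.2% is not a like measure beside the agreeing genes.

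Genes at the floor on both arrays of one side give bounds. There were 84 genes above the floor on both diet arrays alone and 109 on both chow arrays alone, with both pairs at least 1.5-fold for 5 and 3 of them. Next to Dbp, Krt23, a keratin, was at least 3.48-fold higher on the diet, with diet signals of 553 and 412.5, and Ngef was at least 3.01-fold higher. Lower on the diet were Tfeb, a regulator of lysosome genes, by at least 2.11-fold, B3gnt3 by at least 1.84-fold and Ksr1, a kinase scaffold, by at least 1.80-fold.

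Markers of the cell types of liver were examined beside these genes, and in pooled bulk tissue fewer cells of a type and less RNA per cell cannot be told apart. Over all 8014 tested genes 1881 were higher in both pairs, 1841 were lower in both and 4292 had opposite signs. Of 11 tested hepatocyte markers 7 had lower signal on the diet in both pairs and 1 higher; albumin (Alb) had ratios of -0.49 and -0.24. The median of the 11 was -0.46 at 10 weeks and -0.12 at 1 week, and the median of their means, -0.27, became 0.03 after quantile normalization. Of 18 macrophage and Kupffer cell markers 6 were higher in both pairs, none was lower in both and 12 had opposite signs, with medians of 0.68 and -0.12. Their summed signal over 19 measured markers was 24068 and 36032 on chow and diet at 10 weeks and 29490 and 27048 at 1 week. Kupffer cell genes such as Clec4f (1.14 and -0.19) and Cd5l (1.24 and -0.08) had the same pattern. Of 14 endothelial markers 8 had opposite signs; Cdh5, the endothelial cadherin, had 2.02 and -0.30 but -0.29 and -0.83 by its other probe set, and Tek, an angiopoietin receptor, had -0.71 in both pairs. The part of these marker shifts in the ratios of other genes was not tested.

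Of 14 tested interferon-stimulated genes 7 were higher in both pairs and 2 lower, against 1881 and 1841 of all 8014 tested genes. The medians of the 14 were 0.37 and 0.19, and none was past 1.5-fold in both pairs. Irf7, the regulator of interferon genes, had 0.56 and 0.49, and Oas1a, an antiviral synthetase, had 0.69 and 0.35. Both had diet arrays above both chow arrays, as did 13.8% of all tested genes. The other 5 of the 14 had ratios of opposite sign.

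**Figure D5:**
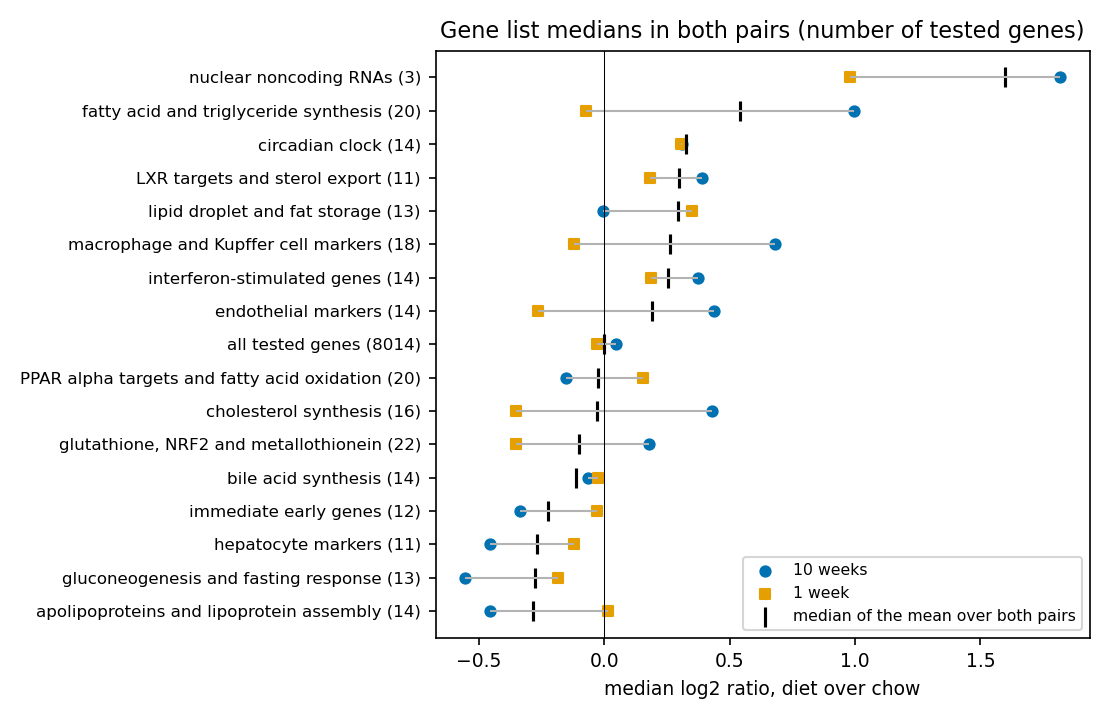
Median log2 ratio of diet over chow for each described gene list at 10 weeks (circle) and 1 week (square), with the median of the means over both pairs (bar) and the number of tested genes in brackets. The clock list has nearly equal medians of 0.31 in both pairs, fatty acid and triglyceride synthesis has 1.00 and -0.07, and all tested genes have 0.05 and -0.03.

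Genes with large ratios that opposed each other average to almost nothing. The largest differences among genes past 2-fold in both pairs were those of Prss2, a trypsinogen, at 2.15 and -1.42, Dyrk1b, a kinase, at 1.74 and -1.44, and Add3, a cytoskeletal adducin, at 1.63 and -1.19. In the other direction stood Samhd1, a nucleotide phosphohydrolase, at -1.39 and 1.57, Reep3 at -1.38 and 1.09, Helz2 at -1.41 and 1.05, and Ptpn2, a phosphatase, at -1.15 and 1.12. The means of these 7 genes lay between -0.18 and 0.37, and those of Samhd1 and Ptpn2 turn sign with another choice of probe sets. The opposition itself rests on the brightest probe set in several of them. Other probe sets gave -0.19 and -0.55, -0.77 and -0.71, and -0.25 and 0.48 for Reep3, 0.10 and -0.44 for Prss2, and 0.32 and -0.21, the reverse order, for Ptpn2. For Samhd1 they gave -0.20 and -0.26, 0.59 and 2.03, and -0.36 and 0.30, and for Add3 0.55 and -0.10. Of 600 genes whose mean was past 1.5-fold, 80 had ratios of opposite sign, whereas of 55 genes whose mean was past 2-fold 37 had both pairs at least 1.5-fold the same way.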

How the data were processed

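Arrays were deposited as 1 linear intensity per probe set, a MAS5 signal per the submitters' processing notes. Of 22690 probe sets 64 are controls, 20380 have 1 gene symbol in the platform annotation, 691 several and 1555 none; only those with 1 symbol were used. Arrays were brought to the same 2% trimmed mean, signals were floored at the 40th percentile (137.4) and taken to log2, and a gene was represented by its probe set of highest mean log2 signal. Genes above the floor on at least 3 of 4 arrays were fitted in limma 3.58.1 (R 4.3.3) with feeding time as a block and diet as coefficient, with eBayes and Benjamini-Hochberg adjustment over all tested genes; Python 3.11.15 did the rest. With 1 array per pool the number of arrays limits the precision. The fit was tested on simulated data with changes of 2 or 3 log2 units, equal in both pairs. That says little of smaller changes or of changes that differ between the pairs.

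Same-numbered arrays share their feeding time, per the labels, and so the block is part of the design. The members and gene lists were chosen with earlier results of these data known. Named were the 12 genes per direction of highest smaller ratio with all signals above the floor, the 3 highest bounds per direction, at most 5 members of a described list and those completing a count, at most 5 opposed genes per direction, and preset genes, with clone names passed over; other genes are named as chosen after their values were seen. Of the lists, 16 are described. Alternatives were other rescaling, floors, filters, probe set rules, thresholds and eBayes settings, no block, and leaving out each array.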

Additional observations from a re-analysis of the deposited data

Results flagged for a closer look

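For 11 named genes both diet over chow ratios were at least 1.5-fold and ran in opposite directions at the feeding times, each pair being 1 array against 1 array, and the difference between the times was not tested. The 10-week log2 ratio exceeded the 1-week ratio by 3.57 for Prss2, 3.18 for Dyrk1b, 2.83 for Add3, 2.58 for Gstm3, 2.54 for Dct, 2.53 for Lyve1 and 1.56 for Sqle. It lay below the 1-week ratio in Samhd1 (difference -2.97), Reep3 (-2.47), Helz2 (-2.47) and Ptpn2 (-2.27). Dct is a melanocyte enzyme and Lyve1 a receptor of sinusoidal and lymphatic endothelium; the Lyve1 signal was at the floor on the 10-week chow array, and its other probe set had ratios of the same sign, 0.53 and 0.24.

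The array left out of the diet effect came from mice on the diet for 10 weeks with atorvastatin in the final 3 weeks. This array had higher signal than both chow arrays for several genes of the text, and for 34.4% of all tested genes. Against the higher chow array it was 2.56-fold higher for Malat1, 2.40-fold for Nr1d1, 2.16-fold for Apoa4, 2.05-fold for Phlda1 and 2.05-fold for Tef. Larger or similar ratios were seen for Saa1 (17.9-fold), an acute phase protein, Msmo1 (11.9-fold) and Fdft1 (2.81-fold), enzymes of cholesterol synthesis, Lpl (2.10-fold) and the Kupffer cell gene Cd5l (2.08-fold). It is 1 array, and no test of it was run here. Its signal for 18S ribosomal RNA was 13944, against 437 to 2185 on the arrays of the diet effect. By its other probe set Saa1 had diet over chow ratios of 0.11 and 0.13.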

How the results depend on the processing

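The count of genes called for the diet by limma was 0 in the design with feeding time as a block and 0 with no such block (unpaired). It was 4 after quantile normalization, with a floor at the 60th percentile and with a filter on all 4 arrays. With a pseudocount in place of the floor it was 8. Of 14 settings run, the main one included, only these 4 called any gene. Malat1, Nr1d1, Gsta2 and AY036118 were called in each of these 4 settings, and Apoa4, Fabp5, Cdkn1a and Neat1 only with the pseudocount. The count for feeding time was 12 after quantile normalization, 4 after cyclic loess, 16 with the higher floor, 52 with the pseudocount, 2 without x and s probe sets and 11 with the filter on all 4 arrays. Genes higher in both pairs numbered 195 with a floor at the 20th percentile, 42 at the 60th, 32 with the pseudocount, 55 with the mean of all probe sets, 372 at the looser limit (log2 ratio of 0.32) and 9 at 2-fold; genes lower in both numbered 221, 35, 23, 49, 357 and 8. The cause of these shifts was not tested.

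The median of the 3 nuclear noncoding RNAs was 1.36 with the pseudocount, 0.52 with the mean of all probe sets and 1.27 without x and s probe sets, and that of the hepatocyte markers was 0.025 after quantile normalization. Leaving out an array leaves 1 pair and a value with no test: medians then ranged from 0.98 to 1.82 for the nuclear RNAs, -0.46 to 0.014 for apolipoproteins, -0.46 to -0.12 for hepatocyte markers and -0.26 to 0.44 for endothelial markers. Of 1182 values under the other alternatives, 1174 kept their direction, for 121 genes that include list members not named in the text. Several alternatives could hardly turn a direction, so this count is no measure of robustness. The filters leave the ratios of a gene as they are, and the arrays had nearly the same trimmed mean before rescaling. The probe set rules change nothing for a gene with 1 probe set. The 8 that turned were Mt1 (0.12) and Hlf (0.010) and Ptpn2 (0.0099) with the mean of all probe sets, Mt1 (0.94) and Samhd1 (-0.23) without x and s probe sets, Apoe (0.011) and Apoa1 (0.030) after quantile normalization, and Clock (0.039) with a floor at the 60th percentile. With an array left out the mean becomes the ratio of the remaining pair, which took the opposite sign for genes whose pairs disagree: Cyp8b1 (-1.34 to 0.006), Sqle (-0.78 to 0.78), Fasn (-0.15 to 1.60), Cyp4a14 (-0.84 to 0.20), Saa1 (-0.54 to 0.26), Mt1 (-1.90 to 0.48), Meg3 (-0.021 to 0.12), Plin5 (-1.60 to 0.16), Nr0b2 (-0.52 to 1.10), Thrsp (-0.21 to 2.23), Elovl6 (-0.17 to 1.77), Acacb (-0.58 to 2.07), Msmo1 (-0.57 to 3.01), Acot1 (-2.04 to 0.13), Fos (-1.57 to 0.17), Cd5l (-0.077 to 1.24), Clec4f (-0.19 to 1.14), Cd14 (-0.93 to 0.21), Cdh5 (-0.30 to 2.02), Lyve1 (-0.73 to 1.80), Cidec (-0.11 to 1.27), Clock (-0.65 to 0.25), Hlf (-0.50 to 0.077), Per1 (-1.66 to 0.032), Add3 (-1.19 to 1.63), Dct (-1.17 to 1.37), Dyrk1b (-1.44 to 1.74), Gstm3 (-1.17 to 1.41), Helz2 (-1.41 to 1.05), Prss2 (-1.42 to 2.15), Ptpn2 (-1.15 to 1.12), Reep3 (-1.38 to 1.09) and Samhd1 (-1.39 to 1.57). Ratios are bounds where 1 side is at the floor.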

Other observations

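The array from mice on the diet with atorvastatin was set beside the genes that agreed between the pairs. It lay above both chow arrays for 59 of the 85 genes higher in both pairs, or 69.4%, and above both chow arrays for 34.4% of all tested genes. It lay below both chow arrays for 48 of the 75 lower genes, or 64.0%, and for 33.6% of all tested genes. The comparison shares the chow arrays with the ratios that chose the genes, so these shares are a description. Among clock genes, the atorvastatin array gave signals of 772 for Nr1d1, 1125 for Nr1d2, 2230.2 for Tef and 254.5 for Arntl, each on the diet side of both chow arrays. Neat1, at 704, lay between its chow signals of 303 and 1277, and Coro1b was at the floor.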
